A study of Mus musculus with 120 samples.

Results

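The genes described here are 10 markers and regulators of blood vessels, Pecam1, Cdh5, Kdr, Flt1, Tek, Vegfa, Angpt2, Esm1, Apln and Vwf, taken from the 55487 genes listed in both deposited count tables by a match of the gene symbol. They were measured by bulk RNA sequencing of the immunological niche (IN), a microporous polycaprolactone scaffold placed under the skin and taken out again as a biopsy of the host tissue grown into it. Nonobese diabetic NOD/ShiLtJ mice develop spontaneous autoimmune diabetes, and NOR/LtJ mice share much of that background but stay normoglycemic. INs were implanted at 4 weeks of age in female mice of both strains, and an explanted IN was replaced by a new one in the same space.

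There were 58 biopsies of 10 NOD mice that became hyperglycemic (progressors), taken at 6 weeks of age and at 7, 5, 3 and 1 weeks before onset and at onset. There were 39 biopsies of NOD mice that did not (nonprogressors), 33 of them from 11 mice aged 6, 10, 14, 18 or 22 weeks and 6 labelled only by the days since implantation. The 23 NOR biopsies came from 5 mice at the same 5 ages. Since the 6-week biopsy is an original implant and later ones can be replacements, the age of the mouse and the history of its scaffolds cannot be told apart in a comparison with 6 weeks. Libraries were sequenced in 2 batches, 74 in batch 1 (4722396 to 56185434 counts, median 30186412.5) and 46 in batch 2 (29029239 to 43880986 counts, median 36440355.5). All NOR biopsies were in batch 1, and all 8 biopsies taken 7 weeks before onset were in batch 2. The 18-week library of NOR mouse 5 had 85.686% of its counts on 1 ribosomal RNA gene, and 3 tests, of the 5 NOR ages, of NOR mice after 6 weeks and of NOD against NOR, are also given without it. The other values include it.

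New vessels grow into an implant by sprouting from those around it. Vascular endothelial growth factor A, encoded by Vegfa, is released by cells short of oxygen and drives sprouting through the endothelial receptor Kdr, whereas Flt1, which also has a soluble form, binds the same ligand tightly and signals weakly. Tek is the receptor of the angiopoietins, of which Angpt2 is made by activated endothelium and loosens vessel walls. Pecam1 and Cdh5 are adhesion proteins of the endothelial junction, Esm1 and Apln mark endothelial tip cells at the front of a sprout, and Vwf is a clotting protein stored in endothelial cells and platelets. In bulk RNA, fewer endothelial cells and less RNA per cell cannot be told apart.

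The promoter sequences of the 3 receptor genes and of Esm1 are shown because Kdr and Tek varied together across biopsies, Flt1 did not vary with them, and Esm1 had the widest range of the 10. Each is the 250 bases before the annotated start (RefSeq, GRCm38.p6), written 5′ to 3′ on the strand of the gene, with matches in capitals to the core GGAA bound by ETS factors and to ACGTG or GCGTG, cores of the hypoxia response element, on either strand. They lie at chr5:75978456-75978705 on the minus strand for Kdr, chr5:147726012-147726261 on the minus strand for Flt1, chr4:94739039-94739288 on the plus strand for Tek and chr13:113209409-113209658 on the plus strand for Esm1.
Kdr: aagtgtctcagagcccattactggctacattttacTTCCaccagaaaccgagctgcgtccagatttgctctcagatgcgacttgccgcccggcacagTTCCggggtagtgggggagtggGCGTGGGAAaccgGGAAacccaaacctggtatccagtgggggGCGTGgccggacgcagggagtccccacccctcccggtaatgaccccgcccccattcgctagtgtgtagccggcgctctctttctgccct
Flt1: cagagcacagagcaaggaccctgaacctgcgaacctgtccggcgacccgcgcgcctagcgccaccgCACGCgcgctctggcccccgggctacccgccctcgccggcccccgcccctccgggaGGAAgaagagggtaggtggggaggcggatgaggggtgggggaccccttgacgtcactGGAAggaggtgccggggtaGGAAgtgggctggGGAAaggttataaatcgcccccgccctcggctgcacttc
Tek: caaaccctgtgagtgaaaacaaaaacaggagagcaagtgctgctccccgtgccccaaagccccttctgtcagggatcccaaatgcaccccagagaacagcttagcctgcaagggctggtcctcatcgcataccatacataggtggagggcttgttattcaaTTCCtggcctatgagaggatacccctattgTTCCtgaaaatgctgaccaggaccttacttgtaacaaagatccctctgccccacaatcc
Esm1: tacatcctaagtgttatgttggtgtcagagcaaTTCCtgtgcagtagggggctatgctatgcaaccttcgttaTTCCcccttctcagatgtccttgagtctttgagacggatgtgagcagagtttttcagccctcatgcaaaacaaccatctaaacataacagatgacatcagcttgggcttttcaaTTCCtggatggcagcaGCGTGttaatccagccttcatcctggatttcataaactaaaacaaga

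Kdr held 4 matches to GGAA and 2 to the hypoxia cores, Flt1 held 4 and 1, Tek 2 and 0, and Esm1 3 and 1, and no 2 matches overlapped. These are common letters. Of 32851 mouse promoters cut to the same length, 93.4% held GGAA and 38.6% held a hypoxia core. Promoters were at hand for 6 of the 10 genes, and those of Vegfa (2 entries) and Apln held 6, 2 and 3 matches to GGAA and 0, 2 and 0 to the hypoxia cores. A match is a string of letters and not a site shown to be bound.

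All 10 genes had reads in all 120 libraries, and all passed the filter on low counts in every comparison. Esm1 was the most thinly covered, with 3 to 202 reads per library (median 37), and Tek went down to 4 reads, so single values of Esm1 carry a large counting error. Of 18 further endothelial genes, 16 had reads in every library, and Cldn5, which encodes a tight junction protein, and the transcription factor gene Sox17 were at 0 in 1 library each. Levels are given as CPM (counts scaled to a common library size) on library sizes scaled by the trimmed mean of M values (TMM), and levels of different genes are compared only after division by the length of the merged exons.

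Per kilobase, the median level in batch 1 was highest for Vegfa (19.7 CPM per kb), followed by Cdh5 (14.5), Vwf (11.9), Pecam1 (9.59), Flt1 (7.17), Apln (6.32), Angpt2 (4.62), Kdr (2.90), Tek (2.79) and Esm1 (0.595). In batch 2 the order of the medians was Cdh5 (12.1), Pecam1 (11.6), Vegfa (11.6), Vwf (10.3), Apln (8.72), Flt1 (6.91), Angpt2 (4.98), Tek (4.498), Kdr (2.70) and Esm1 (0.470). Neighbours in both orders had ranges across biopsies that overlapped, and whether their order held within each library was not tested. More distant ranks were apart, since the highest Esm1 value (3.00 CPM per kb in batch 1 and 2.73 in batch 2) lay below the lowest Vegfa value (4.04 and 3.55), and the highest Kdr value (5.90 and 6.00) below the lowest Vwf value (6.77 and 6.61). The range across biopsies was narrow for Vwf (highest over lowest CPM 4.05 in batch 1 and 3.11 in batch 2) and Angpt2 (3.89 and 3.33), and wide for Esm1 (59.9 and 25.1), Pecam1 (30.8 and 24.4) and Tek (21.3 and 23.03). The plot of CPM in each biopsy shows these ranges by group and time.

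**Figure D1:**
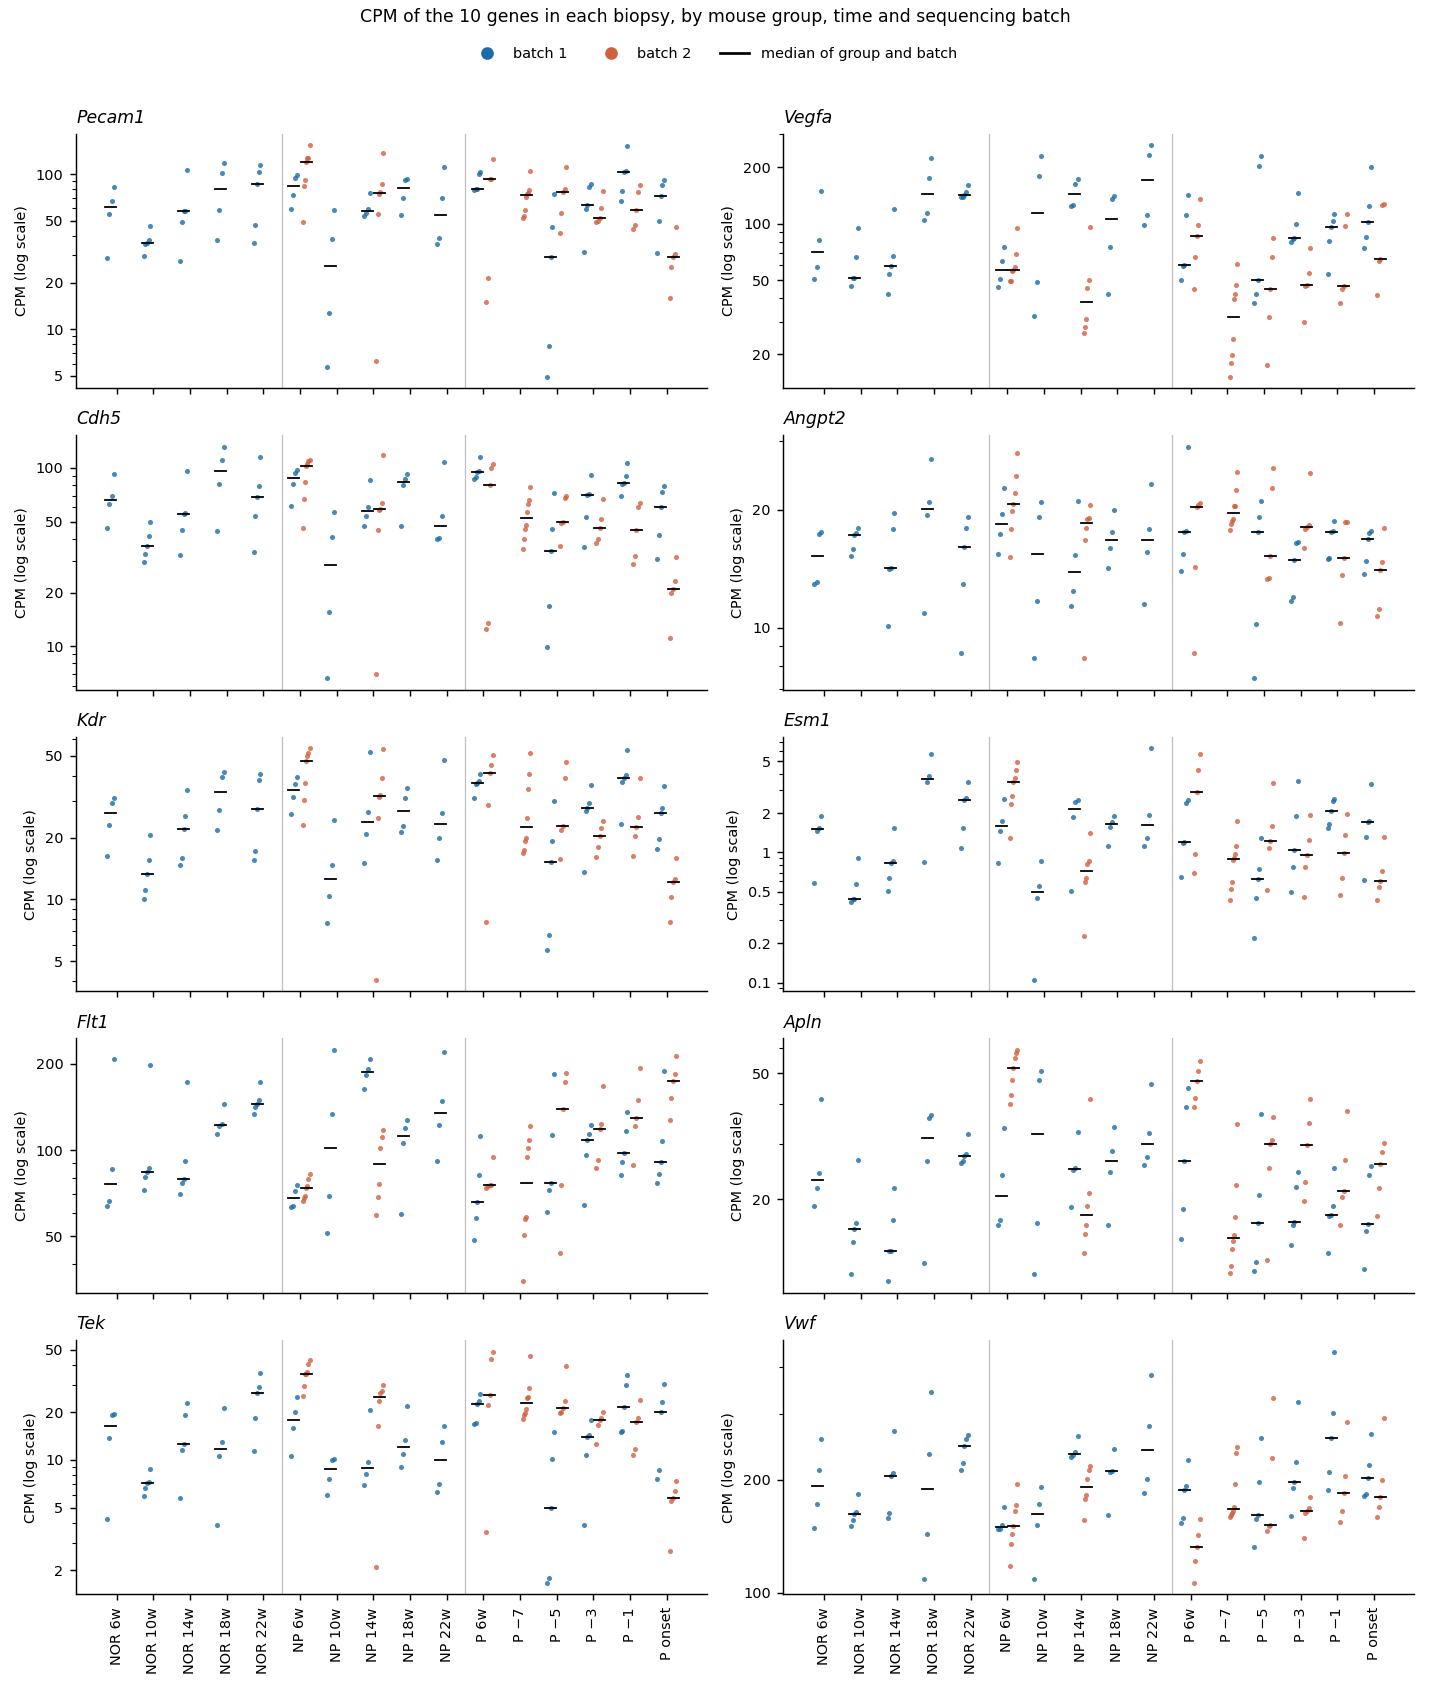
CPM (log scale) of the 10 genes in each biopsy of the NOR mice, the nonprogressors (NP) and the progressors (P), by weeks of age (6w to 22w) or weeks before onset (−7 to −1), with 1 point per biopsy, batch 1 in blue, batch 2 in orange and a bar at each median; the 6 biopsies labelled by days since implantation are left out. In the 5 batch 2 biopsies at onset Tek lies at 2.65 to 7.39 CPM and Flt1 at 127 to 213 CPM.

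The first question was whether vessel genes changed between the 6-week biopsy and the approach to diabetes. In progressors 7 of the 10 genes differed between 6 weeks of age and the biopsies of 5 weeks before onset to onset, in a fit of all 58 biopsies with a batch term (edgeR quasi-likelihood test, adjusted p under 0.05 over 21279 genes). Cdh5, Kdr, Tek, Esm1 and Apln fell and Flt1 and Vwf rose. This was a comparison in which 39.5% of all genes passed, 19.6% higher and 19.9% lower. The median log2 fold change was -0.51 over the 10 genes and 0.01 over all genes. The fit averaged the later times, which differed in batch 1. There the Kdr median was 36.97 CPM at 6 weeks, 15.13 at 5 weeks before onset and 38.85 at 1 week before onset. For Tek these medians were 22.59, 4.96 and 21.5 CPM, and for Cdh5 95.24, 34.41 and 82.45. The Apln median stayed low, at 26.36, 16.85 and 17.81 CPM. In batch 2 the Kdr median was 41.37, 22.88 and 22.54 CPM at these times.

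Cdh5, the cadherin of endothelial junctions, had 87.2, 95.2, 115, 88.9 and 95.9 CPM in the 5 progressors of batch 1 at 6 weeks of age, and a median of 70.1 (9.84 to 107) in their 20 later biopsies. In batch 2 it had 106, 12.4, 80.2, 13.5 and 99.5 CPM at 6 weeks and a median of 42.3 (11.1 to 69.7) later. In batch 2 at 6 weeks progressor mice 7 and 9 lay far below the other 3 mice, and the later range overlaps that at 6 weeks in both batches. The fitted change was -0.65 ± 0.23 (log2, SE; adjusted p = 0.0213), and it was -0.73 within batch 1 (adjusted p = 0.049) and -0.64 within batch 2 (adjusted p = 0.11).

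Kdr, the main signalling receptor for vascular endothelial growth factor A, had 31.2, 40.6, 37.0, 36.5 and 37.6 CPM at 6 weeks in batch 1 and a median of 27.4 (5.68 to 53.3) later. The batch 2 mice had 44.9, 7.76, 41.4, 28.8 and 50.2 CPM at 6 weeks and a median of 20.3 (7.80 to 46.5) later. The low value at 6 weeks was that of mouse 7, and mouse 9, low in Cdh5 and Pecam1 (21.3 CPM), was not as low in Kdr. The fitted change was -0.62 ± 0.22 (log2; adjusted p = 0.0191), at -0.53 within batch 1 (adjusted p = 0.126) and -0.78 within batch 2 (adjusted p = 0.0308).

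Tek, the angiopoietin receptor, had 16.9, 26.3, 23.8, 17.2 and 22.6 CPM at 6 weeks in batch 1 and a median of 14.8 (1.67 to 34.5) later. The 5 mice of batch 2 had 48.6, 3.5, 43.4, 22.3 and 25.8 CPM at 6 weeks and a median of 17.7 (2.65 to 39.5) later. The later range overlaps that at 6 weeks in both batches, and mouse 7 was again the lowest at 6 weeks. The fitted change was -0.72 ± 0.30 (log2; adjusted p = 0.0476), at -0.64 within batch 1 (adjusted p = 0.208) and -1.04 within batch 2 (adjusted p = 0.00554). Pecam1, the platelet and endothelial adhesion molecule also carried by leukocytes, did not pass (-0.41 ± 0.26 on the log2 scale, adjusted p = 0.212), with medians of 80.5 CPM at 6 weeks and 69.9 later in batch 1, and 92.5 and 51.2 in batch 2.

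With the mouse as a replicate block the call of Tek was lost (adjusted p = 0.0565), as was that of Esm1 (adjusted p = 0.0501). Without progressor mouse 6 or mouse 10 the count of genes that passed went from 7 to 3, with adjusted p = 0.0996 and 0.0595 for Cdh5 and 0.0781 and 0.0542 for Kdr, and the call of Tek was lost when any of mice 1, 3, 5, 6, 8, 9 and 10 was left out (adjusted p 0.051 to 0.175).

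Flt1 went the other way from Kdr and Tek. Flt1 had 58.1, 66.0, 48.5, 112 and 81.6 CPM at 6 weeks in batch 1 progressors and a median of 96.8 (60.6 to 189) later. The 6-week values of batch 2 were 73.5, 94.4, 74.7, 75.3 and 75.6 CPM, with a median of 134 (43.6 to 213) later. In batch 2 the 6-week values lie close together, mouse 7 apart, and most later biopsies lie above them. The fitted change was 0.64 ± 0.18 (log2; adjusted p = 0.00345), at 0.52 within batch 1 (adjusted p = 0.109) and 0.77 within batch 2 (adjusted p = 0.0233), and it passed with each of the 10 progressors left out.

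Because Flt1 and Kdr share a ligand, their ratio within a library was also followed, as a description without a test. Across biopsies Kdr followed the summed level of 18 further endothelial genes (Spearman's rho 0.933 in batch 1 and 0.915 in batch 2). Flt1 did not (-0.294 and -0.442), so the ratio cannot be read as a balance of receptors on endothelial cells. The ratio of Flt1 CPM to Kdr CPM, which is not corrected for gene length, had a median of 1.87 (1.31 to 3.07) at 6 weeks and 3.43 (2.01 to 32.5) later in batch 1 progressors, and of 1.81 (1.51 to 12.2) and 7.11 (0.937 to 27.4) in batch 2. At 7 weeks before onset it had a median of 2.73 (1.01 to 6.07). At onset in batch 2 the ratio was 7.97 to 27.4, against 2.14 to 9.63 at onset in batch 1. In nonprogressors it was 1.76 to 2.76 at 6 weeks with a median of 6.44 later in batch 1, and the median went from 1.59 to 2.70 in batch 2, and in NOR mice from 2.76 to 4.54. In the scatter of both receptors most 6-week biopsies of NOD mice sit together at high Kdr and low Flt1.

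**Figure D2:**
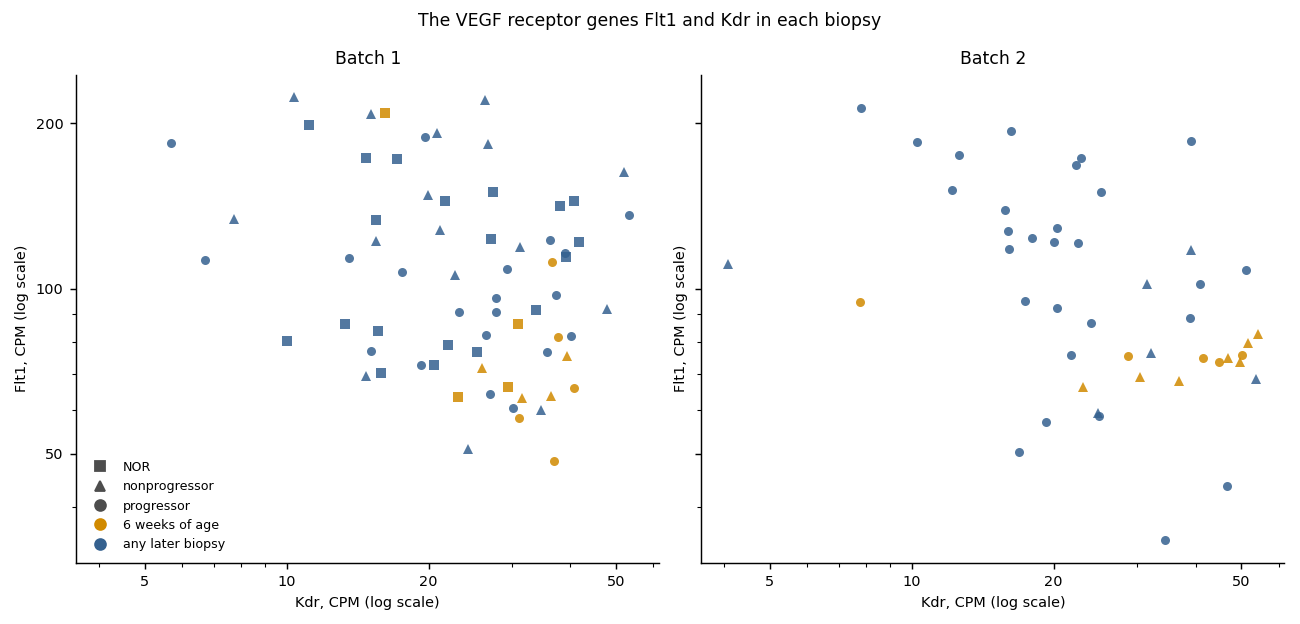
Flt1 CPM against Kdr CPM (both axes log scale) in each biopsy of batch 1 (left) and batch 2 (right), with squares for NOR, triangles for nonprogressors and circles for progressors, and with 6-week biopsies in gold and later ones in blue. The 6-week biopsies of NOD mice lie at 48.5 to 112 CPM of Flt1, and later biopsies extend to 224 CPM of Flt1 and down to 4.07 CPM of Kdr.

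Of the ligands, only Apln passed in this comparison. Apln, the ligand of the endothelial apelin receptor, had 26.4, 44.8, 15.01, 39.1 and 18.6 CPM at 6 weeks in batch 1 progressors and a median of 17.4 (11.9 to 37.1) later. Batch 2 mice had 39.0, 47.2, 41.9, 50.7 and 54.8 CPM at 6 weeks and a median of 26.3 (12.9 to 41.5) later, so that all but 1 of the 20 later biopsies lay below the 6-week range. The fitted change was -0.72 ± 0.15 (log2; adjusted p = 0.000167), at -0.59 within batch 1 (adjusted p = 0.0621) and -0.83 within batch 2 (adjusted p = 0.00209), and it passed with each progressor left out. The gene of its receptor, Aplnr, fell as well (log2 fold change -0.995 ± 0.26, adjusted p = 0.00185), and the other ligand gene, Apela, had reads in only 1 of the 120 libraries.

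Vegfa did not pass in this comparison (log2 fold change -0.13 ± 0.25, adjusted p = 0.713), and its direction differed between batches, at 0.30 within batch 1 and -0.50 within batch 2 (adjusted p = 0.549 and 0.234). It had medians of 60.5 CPM at 6 weeks and 90.4 later in batch 1 and of 86.3 and 50.8 in batch 2, with overlapping ranges in both. Angpt2 did not pass either (-0.16 ± 0.12, adjusted p = 0.303). Its median was 17.6 CPM at 6 weeks and 16.5 later in batch 1, and 20.3 and 15.6 in batch 2.

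Esm1, which encodes a proteoglycan secreted by tip cells, had 1.19, 2.38, 1.21, 2.52 and 0.647 CPM at 6 weeks in batch 1 and a median of 1.43 (0.219 to 3.53) later. In batch 2 it had 2.91, 0.980, 4.33, 0.698 and 5.72 CPM at 6 weeks and a median of 0.974 (0.434 to 3.43) later. The change was -0.84 ± 0.31 (log2; adjusted p = 0.0274), and it was seen in batch 2 (-1.45, adjusted p = 0.00341) more than in batch 1 (-0.19, adjusted p = 0.74), a difference that was not itself tested. The call was lost without progressor mouse 6, 8 or 10 (adjusted p = 0.0706, 0.124 and 0.224).

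Vwf had 158, 154, 192, 188 and 226 CPM at 6 weeks in batch 1 and a median of 199.8 (132.0 to 440.1) later. In batch 2 it had 157, 133, 142.5, 106 and 121 CPM at 6 weeks and a median of 169 (139.7 to 330.0) later. The later values reach well above the 6-week values in both batches. The change was 0.39 ± 0.12 (log2; adjusted p = 0.0104), at 0.27 within batch 1 (adjusted p = 0.266) and 0.52 within batch 2 (adjusted p = 0.0169), and the call held with each progressor left out. Since platelets also hold Vwf, markers of megakaryocytes and platelets were counted beside it. In the same comparison 3 of 7 tested were higher, where 19.6% of all genes were. Among them were Gp1ba (0.63 ± 0.12) and Treml1 (0.77 ± 0.18), both at low levels (medians of 2.41 and 1.49 CPM over all libraries). The summed level of the 8 listed markers was 20.7 to 42.4 CPM at 6 weeks and 22.7 to 86.1 later in batch 1, and 38.1 to 64.0 and 18.6 to 63.7 in batch 2. Across biopsies Spearman's rho of this sum with Vwf was 0.256 in batch 1 and -0.419 in batch 2. The part of these markers in the change of Vwf was not tested.

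**Figure D3:**
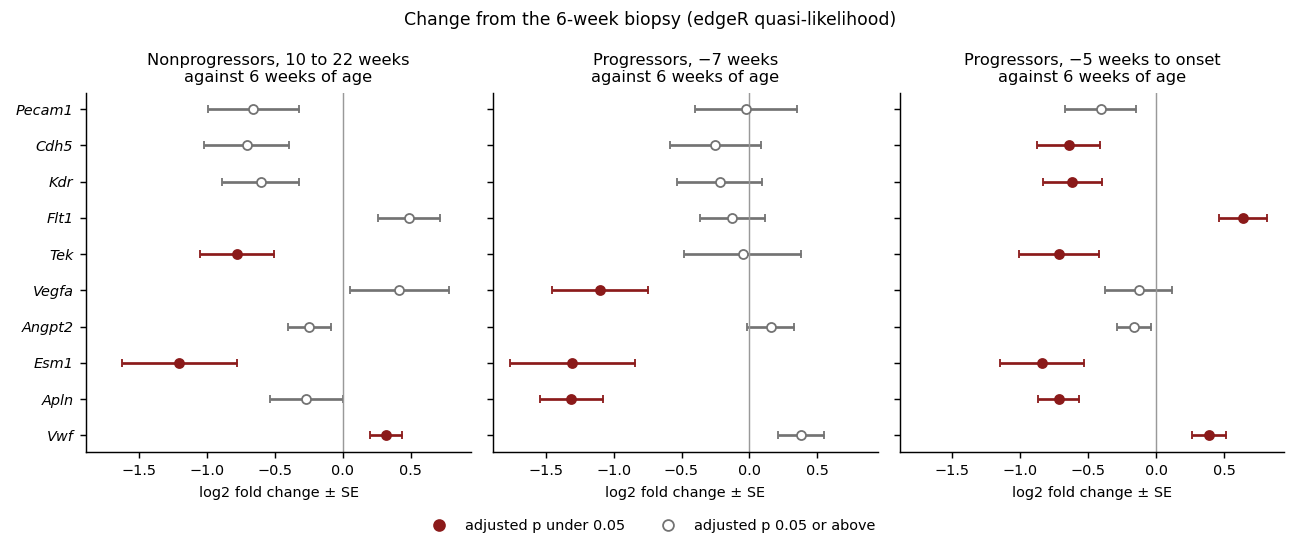
Log2 fold change ± SE of the 10 genes against 6 weeks of age in nonprogressors (10 to 22 weeks of age, 33 biopsies), progressors 7 weeks before onset and progressors from 5 weeks before onset to onset (58 biopsies in 1 fit), with filled points for adjusted p under 0.05. Esm1 is the only gene that passes in all 3 panels, and it lies at -1.20, -1.30 and -0.84.

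The biopsies of 7 weeks before onset, all in batch 2, were set against 6 weeks separately. There 3 of the 10 genes passed against 6 weeks, all lower, in a comparison in which 12.5% of all genes passed, 5.91% higher and 6.64% lower. These were Apln (-1.31 ± 0.23 on the log2 scale, adjusted p = 0.000151), Vegfa (-1.10 ± 0.35, adjusted p = 0.0289) and Esm1 (-1.30 ± 0.46, adjusted p = 0.0495). In the fit within batch 2 they changed by -1.40, -1.38 and -1.71 (adjusted p = 0.000153, 0.0092 and 0.00864). That fit includes the biopsies of progressor mice 1 to 4, whose 6-week biopsies were in batch 1. They were thus set against the 6-week biopsies of other mice, mice 6 to 10. Vegfa had 15.2 to 60.8 CPM (median 31.8) in these 8 biopsies, and the 6-week biopsies of batch 2 progressors had 86.3, 98.1, 44.99, 135 and 66.6 CPM.

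With the mouse as a replicate block only Apln passed (adjusted p = 0.02, against 0.244 for Vegfa and 0.348 for Esm1). Without progressor mouse 2, 4 or 6 the count likewise went to 1 (adjusted p for Vegfa 0.0715, 0.0809 and 0.11), and Vegfa also lost its call without mouse 9 (adjusted p = 0.073) and Esm1 without any of mice 1, 2, 4, 6, 7, 8 and 10 (adjusted p 0.0523 to 0.234). The 4 junction and receptor genes Pecam1, Cdh5, Kdr and Tek had log2 fold changes of -0.25 to -0.02 at that time, none of which passed. Of 12 genes that respond to low oxygen, 3 were lower, where 6.64% of all genes were. Among them were Car9 (-0.97 ± 0.25) and P4ha1 (-0.74 ± 0.21). Among the other ligands and receptors of the growth factor family, 1 of 7 passed, Pgf, which encodes a ligand of Flt1 (-1.88 ± 0.58).

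From 7 weeks before onset to the later progressor biopsies Flt1 rose by 0.76 ± 0.21 (log2; adjusted p = 0.0264), the only one of the 10 to pass where 3.89% of all genes did (1.98% higher, 1.91% lower). Flt1 had 34.8 to 121 CPM (median 76.7) at 7 weeks before onset, with a range that overlaps that of the later biopsies. Vegfa (0.97, adjusted p = 0.0604) and Apln (0.59, adjusted p = 0.0676) missed the threshold and passed it with DESeq2 (adjusted p = 0.0185 and 0.0315). The call of Flt1 was lost with the mouse as a replicate block (0.65, adjusted p = 0.276) and without progressor mouse 2, 3, 4 or 6 (adjusted p = 0.0696, 0.0669, 0.061 and 0.116), and without mouse 8 the count was 3, with Vegfa and Apln added, and without mouse 9 it was 2, with Apln added. Of the oxygen-responsive genes, 4 of 12 were higher in the same comparison, among them P4ha1 (0.71 ± 0.18) and Egln3 (1.46 ± 0.40).

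In nonprogressors 3 of the 10 genes passed between 6 weeks and the 4 later ages, where 24.1% of all genes passed (9.88% higher, 14.2% lower). The count of the 10 is near the share of all genes. Tek (log2 fold change -0.78 ± 0.27, adjusted p = 0.0366) and Esm1 (-1.20 ± 0.42, adjusted p = 0.0378) fell, and Vwf rose (0.32 ± 0.12, adjusted p = 0.048). The median over the 10 genes was -0.44, against -0.03 over all genes.

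Tek had 20.2, 10.6, 15.9 and 25.1 CPM in the 4 nonprogressors of batch 1 at 6 weeks and a median of 9.87 (5.98 to 21.8) in their 16 later biopsies. In batch 2 it had a median of 35.1 (25.6 to 43.1) in 7 mice at 6 weeks and of 25.1 (2.11 to 29.9) in 6 mice at 14 weeks, all 6 below their own 6-week value. The 2 periods overlap in both batches. Esm1 had 2.56, 1.76, 0.827 and 1.45 CPM at 6 weeks and a median of 1.44 (0.105 to 6.29) later in batch 1, and medians of 3.48 (1.30 to 4.94) and 0.722 (0.228 to 1.41) in batch 2, where the 14-week values lay below all but the lowest 6-week value.

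Within batch 1 the change of Esm1 was -0.23 (adjusted p = 0.763) and within batch 2 it was -2.09 (adjusted p = 0.00101). Apln was likewise -1.27 in batch 2 (adjusted p = 0.00101), with a 6-week range of 39.9 to 59.2 CPM and 14-week values of 13.5 to 20.9 CPM in 5 of 6 mice and 41.5 in the sixth, but 0.34 in batch 1 (adjusted p = 0.484). Flt1 was 0.99 within batch 1 (adjusted p = 0.0349) and 0.28 within batch 2 (adjusted p = 0.144), and Vegfa 1.18 and -0.44 (adjusted p = 0.0758 and 0.232). Batch 1 holds 4 later ages and batch 2 only 14 weeks, so these values cover different ages. From 6 to 14 weeks, which both batches hold, the Vegfa median went from 56.84 to 144.3 CPM in batch 1 and from 56.5 to 38.25 in batch 2. For Apln it went from 20.57 to 24.96 and from 52.01 to 17.81, and for Esm1 from 1.605 to 2.159 and from 3.48 to 0.722. The Flt1 median rose in both, from 67.72 to 187.7 and from 73.4 to 89.14. The difference between batches at 14 weeks was not tested.

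Single mice decided these calls. Tek lost its call without nonprogressor mouse 1, 2, 4, 7 or 10 (adjusted p 0.0504 to 0.193), Esm1 without mouse 1, 2, 4, 7, 8, 9 or 10 (0.051 to 0.107) and Vwf without mouse 1, 2, 3, 6, 8, 10 or 11 (0.0599 to 0.291). The count of genes that passed was 0 without nonprogressor mouse 1, 2 or 10, 1 without mouse 4, 7 or 8, and 1, Esm1, without the 22-week libraries (adjusted p = 0.0102 for Esm1, 0.0522 for Tek and 0.125 for Vwf). With the mouse as a replicate block Cdh5 (-0.89, adjusted p = 0.0374) and Kdr (-0.75, adjusted p = 0.033) passed beside Tek (-0.89, adjusted p = 0.0261), while Esm1 (adjusted p = 0.0525) and Vwf (adjusted p = 0.0909) did not. Cdh5 and Kdr also passed without mouse 3 (adjusted p = 0.0358 and 0.0418). Cdh5 was lower in 9 of 10 nonprogressors with both times, Kdr in 8, Pecam1 in 8 and Tek in 9, and no filter on low counts left 0 of the 10 past the threshold (adjusted p = 0.0524 for Tek, 0.0556 for Esm1 and 0.0639 for Vwf).

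In NOR mice 3 of the 10 genes differed over the 5 ages, where 8.24% of all genes did. The median of Esm1 (3.69 CPM) was highest at 18 weeks, as was that of Vegfa (144 CPM). The place of the Vegfa peak rests on the ribosomal RNA-rich library of NOR mouse 5. Without it the middle 18-week value of Vegfa was 113 CPM, below the 22-week median of 141.8 CPM. Esm1 (adjusted p = 0.00463) had 1.45, 1.55, 1.90 and 0.578 CPM at 6 weeks (4 mice), 0.416, 0.568, 0.439, 0.910 and 0.439 at 10 weeks, 3.497, 0.840, 5.66 and 3.88 at 18 weeks (the last in the ribosomal RNA-rich library), and 2.62, 1.08, 3.49, 1.53 and 2.53 at 22 weeks. Vegfa (adjusted p = 0.0106) had 58.7, 50.6, 149.7 and 82.2 CPM at 6 weeks, 51.0, 51.1, 46.3, 95.2 and 66.0 at 10 weeks, 113, 225, 105 and 175 at 18 weeks (the last in the same ribosomal RNA-rich library), and 139, 161, 138, 142 and 148 at 22 weeks. The 22-week values of Vegfa lie above all values of 6 and 10 weeks but the 149.7 CPM of mouse 4. Apln (adjusted p = 0.0413) had its lowest median at 14 weeks, at 13.8, 21.7, 11.0, 13.8 and 17.3 CPM, and had 27.8, 26.1, 32.1, 27.5 and 26.4 CPM at 22 weeks.

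When all later NOR ages were set against 6 weeks, 0 of the 10 were past the threshold by edgeR or DESeq2, and 0 were at an unadjusted p under 0.05 (log2 fold changes from -0.28 for Apln to 0.22 for Vegfa; 0.0357% of all genes passed). Without the ribosomal RNA-rich library Apln was at -0.25 and Vegfa at 0.20. The calls over the 5 ages rested on few mice. None of the 10 passed without NOR mouse 1 or mouse 5 (adjusted p = 0.0914 and 0.128 for Vegfa, 0.06 and 0.0507 for Esm1, 0.286 and 0.0632 for Apln), 1 passed without mouse 3 (adjusted p = 0.0749 for Vegfa and 0.165 for Apln), Apln was lost without mouse 2 (adjusted p = 0.0764), 5 passed without mouse 4, and without the ribosomal RNA-rich library alone 4 did, with Tek added (adjusted p = 0.0456). With the mouse as a replicate block Apln no longer passed (adjusted p = 0.0561), and with DESeq2 6 of the 10 did.

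Whether the groups differ in these genes was asked in 5 ways, and none of the 10 genes passed in any. NOD and NOR mice of batch 1, with 1 summed library per mouse (9 NOD and 5 NOR), differed in 8.98% of all genes (3.87% higher, 5.11% lower) and in 0 of the 10 by edgeR or DESeq2, with log2 fold changes from -0.11 for Flt1 to 0.22 for Kdr and 0 at an unadjusted p under 0.05. Without the ribosomal RNA-rich library these were -0.10 and 0.22. With 6-week samples only they were larger, at -0.58 ± 0.28 for Flt1, 0.48 ± 0.16 for Kdr, 0.54 ± 0.22 for Pecam1 and 0.41 ± 0.17 for Cdh5 (adjusted p = 0.381, 0.16, 0.284 and 0.294). Angpt4, which encodes a ligand of Tek, was higher in NOD mice (2.32 ± 0.095, adjusted p = 1.51e-10). Svep1 (-0.77 ± 0.11) and the adhesion molecule gene Vcam1 (-0.81 ± 0.13) were lower (adjusted p = 0.000243 and 0.00101). Progressors and nonprogressors at 6 weeks of age differed in 0 of the 10 (0.0% of 19082 genes, 985 of them at an unadjusted p under 0.05, and 0 with DESeq2). There Vegfa was at 0.50 ± 0.20 (log2; unadjusted p = 0.0185, adjusted p = 0.891), the only one of the 10 under 0.05 unadjusted, and Pecam1 at -0.31 ± 0.30.

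After 6 weeks progressors and nonprogressors, with 1 summed library per mouse, differed in 0 of the 10 by either tool, where 0.0132% of all genes passed, with log2 fold changes from -0.23 for Kdr (95% interval -0.79 to 0.34) to 0.31 for Esm1 (-0.14 to 0.76). The change after 6 weeks in NOD mice did not differ from that in NOR mice for any of the 10 at the threshold (0.0% of 21131 genes by edgeR, 1881 at an unadjusted p under 0.05, 13 by DESeq2), and the difference in change was -0.62 ± 0.48 for Pecam1 and 0.58 ± 0.33 for Flt1. The changes of progressors and nonprogressors were compared in the same way, again with 0 of the 10 past the threshold (0.0% of 22722 genes by edgeR, 1531 at an unadjusted p under 0.05, 11 by DESeq2), and the difference was -0.67 ± 0.39 for Vegfa (95% interval -1.43 to 0.09) and 0.45 ± 0.42 for Pecam1.

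A pattern noticed after the values were seen was a lower level of the junction and receptor genes at onset than 1 week before. In batch 1 the onset medians were not the lowest. Pecam1 had a median of 72.54 CPM at onset against 29.11 at 5 weeks before it, and Kdr 26.42 against 15.13. In batch 2 the same medians were 29.36 against 77.03 CPM for Pecam1 and 12.17 against 22.88 for Kdr. Pecam1 went from 77.6, 152, 104, 103 and 67.3 CPM 1 week before onset to 72.5, 91.8, 50.1, 84.98 and 30.8 at onset in progressor mice 1 to 5, and from 76.3, 58.4, 84.8, 46.9 and 44.4 to 45.4, 30.7, 15.9, 25.0 and 29.4 in mice 6 to 10. It was lower at onset in 10 of 10 mice. Cdh5 went from 82.5, 107, 90.5, 80.9 and 69.5 CPM to 60.2, 79.3, 42.1, 73.3 and 30.7 in batch 1 and from 60.5, 44.6, 63.4, 28.9 and 31.9 to 31.5, 19.8, 11.1, 21.1 and 23.3 in batch 2, and Kdr had 16.2 to 53.3 CPM before and 7.80 to 35.7 at onset. Each was lower at onset in 10 of 10 mice. Of all 21279 genes tested, 0.334% were lower at onset in every one of the 10 mice and 0.197% higher. Pecam1, Cdh5 and Kdr varied together across biopsies (Spearman's rho 0.905 to 0.971), so their counts are not independent of each other.

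Tek was lower at onset in 8 of 10 mice, all 5 of batch 2 (18.4, 17.3, 24.0, 11.7 and 10.8 CPM to 7.39, 6.37, 2.65, 5.48 and 5.78) and 3 of 5 in batch 1. In the fit of all progressor biopsies none of the 10 passed between these times by edgeR or DESeq2, where 0.0047% of genes did, and 3 of the 10 were under 0.05 unadjusted. The log2 fold changes were -0.79 ± 0.34 for Pecam1, -0.79 ± 0.31 for Cdh5, -0.78 ± 0.29 for Kdr and -0.72 ± 0.40 for Tek (adjusted p = 0.454, 0.427, 0.41 and 0.556). Within batch 2 Tek was at -1.58 (adjusted p = 0.0278) and the other 3 at -1.11 to -1.07 (adjusted p = 0.115 to 0.145), and within batch 1 the 4 were at -0.60 to -0.36. The test of the difference between batches did not pass for any of the 10 (Tek -1.17 ± 0.63, adjusted p = 0.82; 0.0% of 21968 genes by edgeR, 1341 at an unadjusted p under 0.05, 6 by DESeq2).

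**Figure D4:**
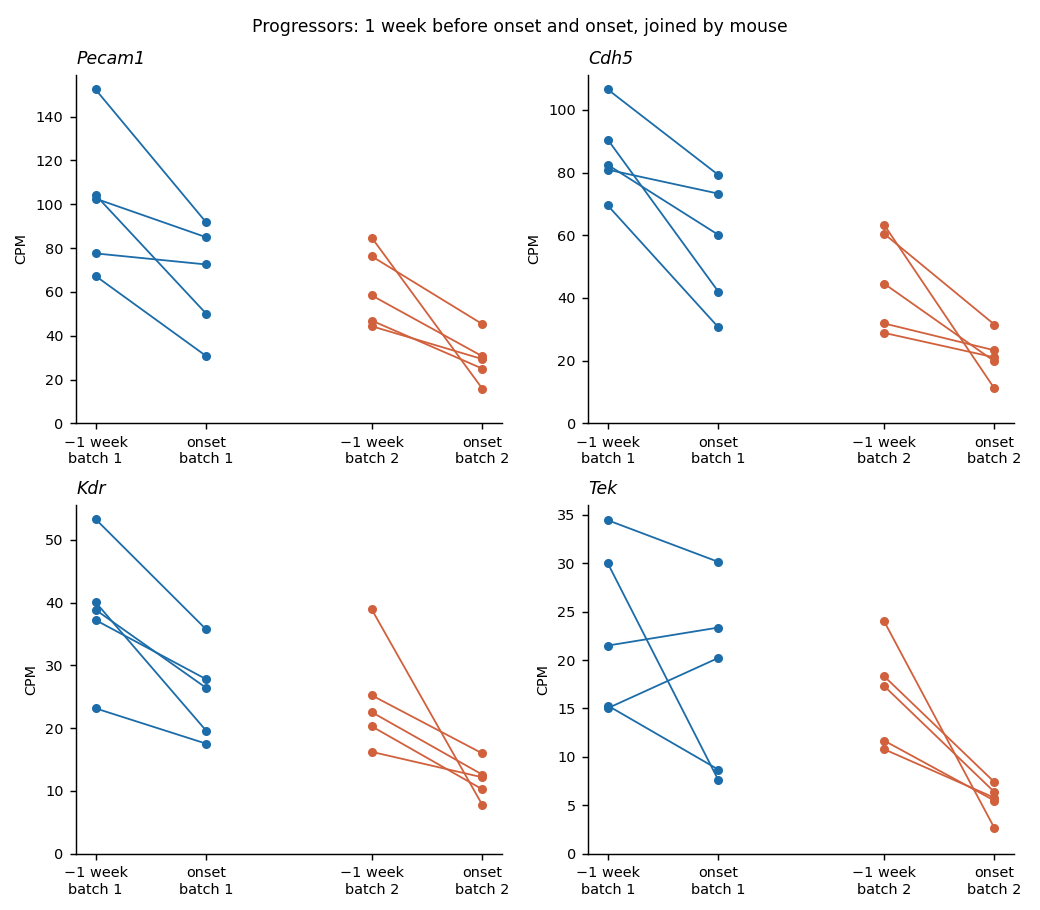
CPM of Pecam1, Cdh5, Kdr and Tek in each of the 10 progressors 1 week before onset and at onset, joined by mouse, with batch 1 in blue and batch 2 in orange. Pecam1, Cdh5 and Kdr are lower at onset in 10 of 10 mice and Tek in 8 of 10.

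Genes of other cell types were also followed, and they did not all go the same way. Across the same onset libraries of batch 2, the summed level of 6 fibroblast genes was 6558 to 19680 CPM, against 16260 to 31490 CPM 1 week before, and that of 18 further endothelial genes was 158 to 260 CPM against 278 to 448 CPM. After 6 weeks 6 of 6 fibroblast genes were lower both in nonprogressors and in progressors, where 14.2% and 19.9% of all genes were. Among them were Col1a1 in progressors (-1.25 ± 0.15) and Lum in nonprogressors (-1.18 ± 0.19). The sum of the 6 fibroblast genes went from a median of 64630 CPM at 6 weeks to 21310 CPM later in batch 2 progressors. Their part in the changes of the vessel genes was not tested. In later progressor biopsies 3 of 5 T cell genes and 3 of 4 B cell genes were higher than at 6 weeks, where 19.6% of all genes were. Against 7 weeks before onset the T cell genes Cd8a (-1.19 ± 0.34) and Cd4 (-1.14 ± 0.35) were lower (adjusted p = 0.0344 and 0.047). Of 8 macrophage genes 0 passed against 6 weeks in later biopsies of progressors or nonprogressors. Against 7 weeks before onset Adgre1 was higher (0.375 ± 0.108, adjusted p = 0.0365). In NOD against NOR mice C1qb (-0.88 ± 0.10) and C1qa (-0.50 ± 0.10) were lower. Hair follicle genes were higher in 5 of 6 cases in later progressor biopsies, where 19.6% of all genes were. Their summed level was 1.82 to 4534 CPM (median 5.44) in batch 1 and 1.02 to 6061 CPM (median 2.58) in batch 2. At 6 weeks it was 0.816 to 66.4 and 0.821 to 2.30 CPM. Keratinocyte genes went both ways. Krt14 was higher in later progressor biopsies (2.695 ± 1.087), and Krt10 (-3.75 ± 0.73) and Krt1 (-4.83 ± 1.07) were lower in later nonprogressor biopsies. Whether skin was taken with the biopsies was not tested.

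Of the 18 further endothelial genes, 6 were lower in progressors from 5 weeks before onset to onset, among them Ramp2 (-1.16 ± 0.29), which encodes the partner of the adrenomedullin receptor, and Ecscr (-0.42 ± 0.11), and 3 were lower in nonprogressors, among them Ramp2 (-0.98 ± 0.29) and Clec14a (-0.88 ± 0.29). Over all genes the shares were 19.9% in progressors and 14.2% in nonprogressors. The nonprogressor count is near the share of all genes. None of the 18 was higher in either group. Their summed level went from a median of 578 CPM at 6 weeks to 448 CPM later in batch 1 progressors and from 455 to 295 CPM in batch 2, with overlapping ranges.

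Among genes of the growth factor family, Vegfd, which encodes a ligand of lymphatic vessels, fell in progressors (-1.33 ± 0.27) and nonprogressors (-0.91 ± 0.20), out of 3 and 1 of 7 that passed, all lower. Of all genes, 19.9% were lower and 19.6% higher in progressors, and 14.2% lower and 9.88% higher in nonprogressors. The nonprogressor count of this family is near the share of all genes. In the angiopoietin system the Tek ligand gene Angpt1 was lower (-0.66 ± 0.21) and Angpt4 higher (0.38 ± 0.14) in nonprogressors and none of 5 genes passed in progressors. Of tip cell genes, the basement membrane gene Nid2 was lower in both (-1.32 ± 0.20 and -1.19 ± 0.22) and Pdgfb, which encodes the ligand that recruits pericytes, was higher in both (0.27 ± 0.11 and 0.34 ± 0.11). Of Notch and arterial genes, Jag1 and Efnb2 were lower and Hey1 higher in both groups, out of 9 tested.

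Of 7 inhibitors of angiogenesis, 4 were lower in each NOD group. Over all genes, 19.9% were lower in progressors and 14.2% in nonprogressors. Among the 4 were Col18a1, the source of endostatin (-1.55 ± 0.18 in progressors and -1.09 ± 0.22 in nonprogressors), and Thbs2 in progressors (-1.24 ± 0.23). Of 10 pericyte and smooth muscle genes, 5 were lower in progressors, among them the channel genes Kcnj8 (-1.78 ± 0.32) and Abcc9 (-1.18 ± 0.30), and 1 was lower in nonprogressors, Kcnj8 (-1.14 ± 0.35). Of 12 oxygen-responsive genes, 1 was lower in progressors (Car9, -0.46 ± 0.17) and 1 higher in nonprogressors (Pfkfb3, 0.51 ± 0.17). Of 5 capillary genes, Car4 was higher in both (4.32 ± 0.84 and 3.32 ± 0.50) and the fatty acid transporter gene Cd36 in progressors (0.57 ± 0.12). Car4 was low, with a median of 1.85 CPM and 0 in 4 libraries, and Cd36 had a median of 977 CPM. The summed level of the 5 did not follow the endothelial genes across biopsies (Spearman's rho with Pecam1 -0.194 in batch 1 and -0.374 in batch 2).

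Across biopsies the 10 genes fell into blocks. As a description, without a test, Spearman's rho of log2 CPM was computed over the 74 biopsies of batch 1 and the 46 of batch 2. These share batch, depth and, in part, mice, so they are not independent. Pecam1, Cdh5 and Kdr had rho of 0.91 to 0.97 with each other and of 0.74 to 0.85 with Tek, and the 4 had rho of 0.82 to 0.98 with the summed level of the 18 further endothelial genes. The genes most like Pecam1 were Plvap, Adgrl4 and Tie1 (mean rho 0.958 to 0.960), those most like Kdr were Robo4, Cdh5 and Adgrf5 (0.918 to 0.923), and those most like Tek were Galnt15, Hspa12b and Ramp2 (0.860 to 0.871).

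Flt1 was not in that block, with rho of -0.25 with Pecam1 in batch 1 and -0.43 in batch 2, and of 0.82 and 0.53 with Vegfa. Its most similar genes were Slc7a2, Gpr35 and Arg1 (mean rho 0.817 to 0.854). Vegfa had rho of 0.93 in both batches with the summed level of the 12 oxygen-responsive genes, and Flt1 0.86 and 0.54. The genes most like Vegfa were Egln1, Ndrg1 and Slc2a1 (0.912 to 0.931), and those most like Apln, with rho of 0.68 and 0.65 with Vegfa, were P4ha2, Lox and Fosl1 (0.810 to 0.829).

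Angpt2 went against Vegfa (-0.52 and -0.58) and against Flt1 (-0.47 and -0.63), and the genes most like it were Disp2, Col4a1 and Clec1a (0.617 to 0.631). Esm1 had rho of 0.61 and 0.57 with Pecam1, 0.51 and 0.61 with Apln, 0.37 and 0.15 with Vegfa and 0.21 and -0.22 with Flt1, and its most similar genes were Prnd, Rtl1 and Tll1 (0.675 to 0.762). Vwf was apart from the endothelial block (0.26 and 0.07 with Pecam1), and the genes most like it were 1700088E04Rik, Zfp276 and Trpm4 (0.677 to 0.693).

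**Figure D5:**
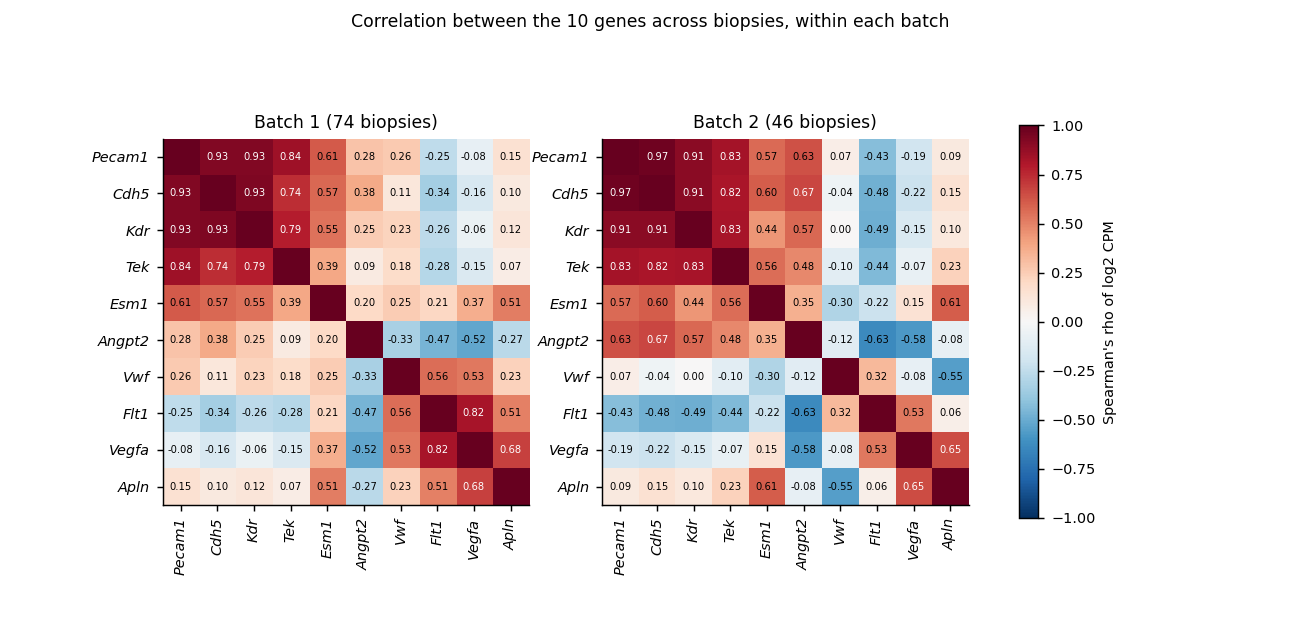
Spearman's rho of log2 CPM between the 10 genes over the 74 biopsies of batch 1 (left) and the 46 biopsies of batch 2 (right), from -1 (blue) to 1 (red). Pecam1, Cdh5, Kdr and Tek form 1 block in both batches, and Flt1, Vegfa and, in part, Apln form another.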

How the data were processed

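Bulk RNA sequencing of ribosomal RNA-depleted total RNA was used for 120 IN biopsies in 2 batches. Per the labels, reads were trimmed with cutadapt, aligned to GRCm38 with STAR and counted with RSEM, and the deposited values are expected counts per gene, unnormalized and whole numbers in the files. Versions are not given in the sources used here. The 55487 genes in both tables were joined by identifier, of which 99.5% matched GENCODE M21, and 5 and 4 reporter rows were left out.

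CPM were computed on TMM-scaled library sizes. Comparisons used edgeR 4.0.16 (quasi-likelihood, filterByExpr, batch as a term) in R 4.3.3 over all genes that passed the filter, with Benjamini-Hochberg adjustment and a threshold of 0.05. The counts were already whole, so rounding changed none. Groups followed the labels. NOD against NOR, and progressors against nonprogressors after 6 weeks, used summed counts per mouse. DESeq2 1.42.0, other normalization, no filter, fits within batches, the mouse as a replicate block and each mouse left out were the alternatives. The scripts were tested on simulated data. The genes, lists and tests were chosen with earlier results of these data known. Genes named from each list were at most the 2 with the smallest p per comparison and direction, and those named as most alike were the 3 with the highest mean Spearman's rho over both batches among 14882 genes with a median of at least 1 CPM.

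Biopsies of 1 mouse come from the same animal, and the labels number the mice, so the mouse pairs samples. The mean correlation of deviations from the group means between biopsies of 1 mouse was 0.025 in NOR, 0.017 in nonprogressors and -0.013 in progressors, against -0.006, -0.003 and 0.003 between mice. Depth was 4722396 to 56185434 counts per library, so that Esm1, with 3 to 202 reads, is the least precise. All 239 pairs of replicate libraries differed by more than sampling noise, with a chi-square divided by its degrees of freedom of at least 11.97.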

Additional observations from a re-analysis of the deposited data

Results flagged for a closer look

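Single biopsies stood apart from the others of their group and time in 14 of 230 sets of CPM values, by the gap to the nearest biopsy relative to the range. Chance alone marks about 1 in 20 such sets, so the number is close to it. Flt1 was high in NOR mouse 4 at 6 weeks (209 CPM against 63.5 to 86.0 in the other mice) and 10 weeks (199 against 72.6 to 86.3), in NOR mouse 2 at 14 weeks (173 against 70.1 to 91.4), in progressor mouse 7 at 6 weeks (94.4 against 73.5 to 75.6) and in progressor mouse 3 at onset (189 against 76.5 to 107). Nonprogressor mouse 5 at 14 weeks had high Vegfa (95.6 against 26.0 to 49.8) and Apln (41.5 against 13.5 to 20.9) and low Angpt2 (8.4 against 16.8 to 20.6), and it was also the lowest of its group for Pecam1, Cdh5, Kdr and Tek.

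Tek was high in progressor mouse 7 at 7 weeks before onset (45.3 CPM against 18.1 to 28.7) and 5 weeks before onset (39.5 against 19.7 to 23.5), the mouse with the lowest Tek of batch 2 progressors at 6 weeks. Angpt2 was high in progressor mouse 3 at 6 weeks (29.0 against 14.0 to 17.7) and progressor mouse 10 at 3 weeks before onset (24.8 against 16.0 to 18.3). Apln was high in progressor mouse 9 at 7 weeks before onset (34.5 against 11.7 to 22.2), and Esm1 in nonprogressor mouse 3 at 22 weeks (6.29 against 1.13 to 1.94).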

How the results depend on the processing

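Of 270 alternatives to a called gene value, 0 changed its direction, 181 kept the call and 89 lost it, and of 2130 alternatives to a value that was not called, 147 changed sign and 22 gained a call. The counts of the 10 genes that passed moved as follows, and the cause was not tested. Over the NOR ages DESeq2 called 6, and leaving out 1 mouse gave 0 to 5. In nonprogressors the count was 0 with no filter on low counts, 1 within batch 1, 5 with no batch term, 1 without the 22-week samples and 0 to 4 with 1 mouse left out. In progressors from 5 weeks before onset on it was 1 within batch 1, 4 with no batch term and 3 to 7 with 1 mouse left out, and at 7 weeks before onset it was 1 with the mouse as a replicate block and 1 to 3 with 1 mouse left out. Between these times it was 3 with DESeq2, 0 with the replicate block, 2 within batch 2, 2 with no batch term and 0 to 3 with 1 mouse left out. From 1 week before onset to onset it was 1 within batch 2. The pairing by mouse changed no other call than those given beside the results.

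Some values that were not called turned. For NOD against NOR, Flt1 was 0.0 with samples after 6 weeks only, -0.583 with 6-week samples only and -0.189 to 0.037 with 1 mouse left out, and Tek (0.469), Vegfa (-0.229), Apln (-0.034) and Vwf (-0.22) turned with 6-week samples only. With samples after 6 weeks only Pecam1 (-0.042), Cdh5 (-0.06) and Angpt2 (-0.063) turned. After 6 weeks, Vegfa in NOR was -0.028 to 0.621 with 1 mouse left out, and in nonprogressors Apln was 0.339 within batch 1 and Vegfa -0.438 within batch 2. In progressors Vegfa was 0.301 within batch 1 and -0.287 to 0.0 with 1 mouse left out. Between progressors and nonprogressors, Pecam1 at 6 weeks was 0.1 within batch 1 and Kdr after 6 weeks 0.151 within batch 1. Scaling CPM by library totals moved 23 of 260 group means by more than their SD. Depth limits Esm1 and Tek most.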

Other observations

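The 6 nonprogressor biopsies labelled by days since implantation (31, 38 and 108 days) are not tied to a numbered mouse and entered no comparison. They had 44.0 to 73.9 CPM of Pecam1, 39.2 to 81.5 of Cdh5, 15.6 to 34.8 of Kdr and 10.5 to 15.9 of Tek. Flt1 ranged from 33.3 to 130 CPM, Vegfa from 17.3 to 52.1 and Apln from 8.73 to 17.1. Esm1 was at 0.129 to 0.302 CPM in all 6.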
